A study of Mus musculus with 6 samples.

Results

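The 10 genes described here mark stem cells at the base of the intestinal crypt: Lgr5, Lgr4, Ascl2, Olfm4, Smoc2, Msi1, Lrig1, Bmi1, Hopx and Prom1. They were chosen by symbol, and all 10 were found among the 24956 rows of the expression table. Of them, 4 (Lgr5, Ascl2, Olfm4 and Smoc2) stand for cycling stem cells, 3 (Bmi1, Hopx and Lrig1) for reserve stem cells, and Lgr4, Msi1 and Prom1 belong to neither set. The data are RNA-seq of 6 libraries from mouse intestinal organoids, self-organising cultures of gut epithelium grown from primary cells. All 6 carry the Apc Min genotype, a truncating allele of the beta-catenin regulator Apc, so there was no wild-type group. The groups were organoids in control medium (3 libraries) and organoids in low glutamine medium (3 libraries), and the series title names alpha-ketoglutarate, Wnt signalling and differentiation as its subject. How low the glutamine was, for how long, in which gut segment and from which animals is not given in the sources used here. Replicates are called biological in the series' design text, but nothing says that they came from separate animals or cultures, so p-values measure the spread between these libraries, which may be technical.

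The intestinal epithelium is renewed from the crypt base, where slender cycling stem cells sit between Paneth cells. These cells depend on Wnt signals, which R-spondins strengthen by binding the receptors LGR4 and LGR5 and so clearing the ubiquitin ligases RNF43 and ZNRF3 from the cell surface. Reserve stem cells were described higher in the crypt as slowly dividing cells that can rebuild the cycling pool after injury. Their markers Bmi1, Hopx and Lrig1 are also expressed in cycling stem cells and in other crypt cells.

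Promoter sequence from RefSeq (GRCm38.p6, the mm10 build) covered 7 of the 10 genes with 9 annotated starts, and Lgr5, Smoc2 and Msi1 had no entry. Each window ran from 250 bases before to 50 bases after a start. The TCF/LEF core CTTTGA was searched on both strands as the letters through which Wnt signals reach DNA, and the E-box CAGCTG, a palindrome, as letters that basic helix-loop-helix factors read. The CTTTGA core was in 1 of the 9 windows, against 16.0% of all 32851 promoter windows, and CAGCTG was also in 1 of 9, against 16.3%. The matches, at the inner Prom1 start (minus strand, chr5:44094743-44094772) and the outer Hopx start (minus strand, chr5:77115074-77115103), are shown in capitals and begin at positions 9 and 34, with the start base as position 1:
Prom1: ccagggatggtaCTTTGAgtgaatgaccac
Hopx: gagtgaaaagtccCAGCTGactctcagaag
The 250 bases before the starts of Ascl2 (minus strand, chr7:142969265-142969514) and Olfm4 (plus strand, chr14:80000052-80000301) are shown because both genes rose about as much in low glutamine, and neither window holds CTTTGA or CAGCTG. Capitals mark the core promoter letters CCAAT and TATAA on either strand, a choice made after the sequences were seen:
Ascl2: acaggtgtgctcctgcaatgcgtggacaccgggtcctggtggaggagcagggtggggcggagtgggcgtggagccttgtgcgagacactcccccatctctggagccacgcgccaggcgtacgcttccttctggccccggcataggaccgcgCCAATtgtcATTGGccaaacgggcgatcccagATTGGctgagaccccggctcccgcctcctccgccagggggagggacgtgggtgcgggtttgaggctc
Olfm4: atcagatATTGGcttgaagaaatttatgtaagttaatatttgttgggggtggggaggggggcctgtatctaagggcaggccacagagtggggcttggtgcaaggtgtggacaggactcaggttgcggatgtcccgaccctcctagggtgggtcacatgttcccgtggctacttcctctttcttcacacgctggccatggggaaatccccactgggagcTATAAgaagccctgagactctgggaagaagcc
The Ascl2 window holds CCAAT 3 times and no TATAA, and the Olfm4 window holds each once, with TATAA beginning 32 bases before the start. Before all starts in the table, 33.8% of windows hold CCAAT and 22.8% hold TATAA, and among the 9 starts of these genes the counts were 7 and 1. These matches are letters in a window and were not tied to any binding measurement.

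Values are RPKM, read numbers normalised for transcript length and sequencing depth, which was estimated at 24.4 to 35.4 M (mega) reads. Epithelial markers such as Epcam were abundant in all 6 libraries (7 genes summing to 2069 to 2264 RPKM in control and 2581 to 2666 RPKM in low glutamine). Stromal markers summed to at most 0.10 RPKM over 7 genes, with Col3a1 and Lum at 0 throughout. Endothelial markers summed to at most 0.471 RPKM over 4 genes. Immune markers summed to at most 2.57 RPKM over 6 genes, mostly Cd68 in low glutamine and Itgam and Cd68 in control. Sex-linked transcripts separated the groups as well: Xist measured 83.1 to 90.5 RPKM in control and at most 0.0350 RPKM in low glutamine, and the Y-linked Ddx3y at most 0.0244 RPKM and at least 9.39 RPKM. The Y-linked Eif2s3y, Kdm5d and Uty read 0 in every control and were present in every low glutamine library. Read as sex, which the labels do not give, this is a female pattern in control and a male pattern in low glutamine. The groups therefore did not share their source animals. The medium and the source animals, with their sex, coincided in every library and cannot be told apart for any gene below. By limma with Benjamini-Hochberg adjustment, 66.4% of the 11082 genes averaging 1 RPKM or more passed an adjusted p of 0.05 in either direction, 36.1% as higher and 30.3% as lower in low glutamine.

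All 10 stem cell genes passed the filter on low values. Low glutamine organoids carried higher levels of 8 of them, 0 were lower, and Hopx and Lgr4 did not pass the test, against 36.1% of all tested genes called higher. The cycling genes Lgr5, Ascl2, Olfm4 and Smoc2 all rose, by between 1.79-fold and 2.67-fold in mean RPKM. Of the reserve genes, Lrig1 and Bmi1 rose by 1.61-fold and 1.31-fold, and Hopx measured 103 and 110 RPKM in the 2 groups. The median log2 fold change of the 10 was 0.76, beside 0.03 over all tested genes. In 8 of the 10 the libraries of the groups did not overlap, all with low glutamine higher, where 38.9% of tested genes showed that order. Bulk RNA cannot tell more cells of a type from more RNA per cell.

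**Figure D1:**
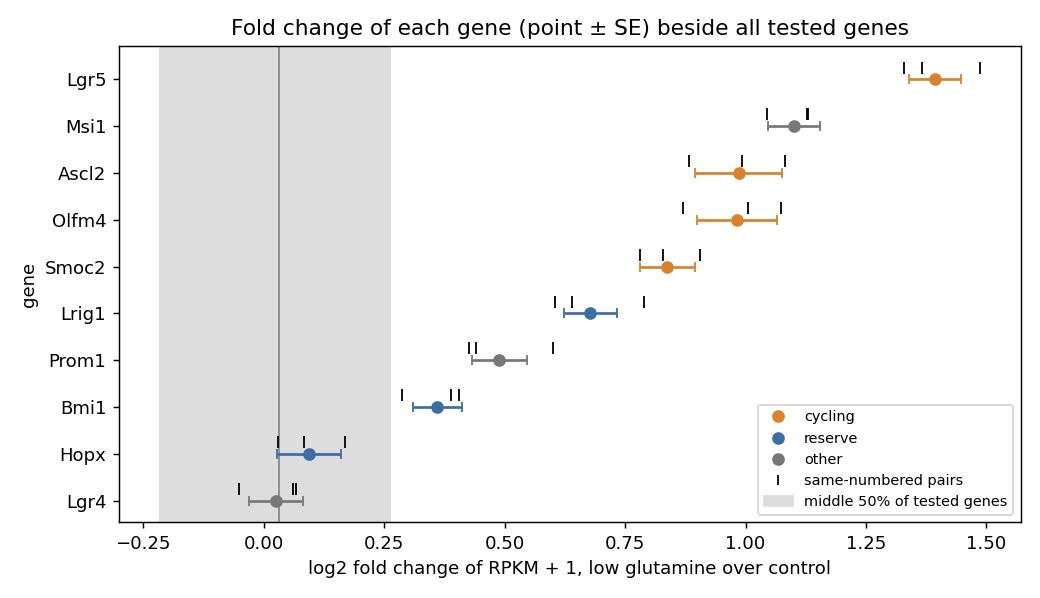
Log2 fold change of RPKM + 1 (x axis, low glutamine over control, point ± SE) for each of the 10 genes (y axis), coloured as cycling, reserve or other, with ticks for the differences between same-numbered libraries and a grey band for the middle 50% of tested genes. The cycling genes lie between 0.84 and 1.39 and the reserve genes between 0.09 and 0.68, and Hopx and Lgr4 lie inside the band.

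Among the cycling genes Lgr5 showed the largest difference. Lgr5 encodes an R-spondin receptor and is the defining marker of cycling crypt base stem cells (chromosome 10, 115450314 to 115587780). It measured 43.7, 42.4 and 41.4 RPKM in control replicates 1 to 3 and 111, 111 and 118 RPKM in the low glutamine libraries. Every low glutamine library lay far above the highest control, and the SD within a group was 2.68% of the mean in control and 3.42% in low glutamine. The log2 fold change was 1.39 ± 0.05 (SE, limma adjusted p = 3.2e-10), and 261 of the tested genes, 2.36%, had a larger rise.

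Ascl2 encodes a basic helix-loop-helix transcription factor that Wnt signalling switches on in stem cells and that maintains their identity (chromosome 7, 142966822 to 142969264). Its level was 11.2, 10.2 and 8.66 RPKM in control libraries and 21.5, 22.7 and 18.2 RPKM in those with low glutamine. The libraries separated, but replicate 3 was the lowest of both groups, and the spread within groups was the widest of the 10 genes at 12.9% and 11.1% of the mean. The log2 fold change was 0.99 ± 0.09 (limma adjusted p = 1.1e-06).

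Olfm4, olfactomedin 4, is a secreted glycoprotein abundant in crypt base cells and a target of Notch signalling (chromosome 14, 80000302 to 80023141). It was the most abundant of the 10 genes. Its control libraries read 475, 416 and 469 RPKM, and the low glutamine values were 868, 835 and 988 RPKM. Every low glutamine library lay above every control, and replicate 2 was the lowest of each group. The log2 fold change was 0.98 ± 0.08 (limma adjusted p = 4.9e-07). Olfm4 made up 48.6 ± 2.33% (SD, n = 3) of the summed RPKM of the 10 genes in control and 54.4 ± 1.87% in low glutamine. The sum of the other 3 cycling genes went from 195 ± 5.82 to 390 ± 7.12 RPKM, a ratio of 2.0, so that the rise of the set did not rest on Olfm4 alone.

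Smoc2, a secreted calcium-binding matrix protein that marks the same cells, was the steadiest of the 4 within groups (chromosome 17, 14279490 to 14404790). Control replicates 1 to 3 read 145, 145 and 139 RPKM, and low glutamine replicates 259, 249 and 261 RPKM. The low glutamine libraries lay far above the controls, whose SD was 3.53 RPKM. The log2 fold change of 0.84 ± 0.06 (limma adjusted p = 6.1e-08) was the smallest of the cycling genes.

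**Figure D2:**
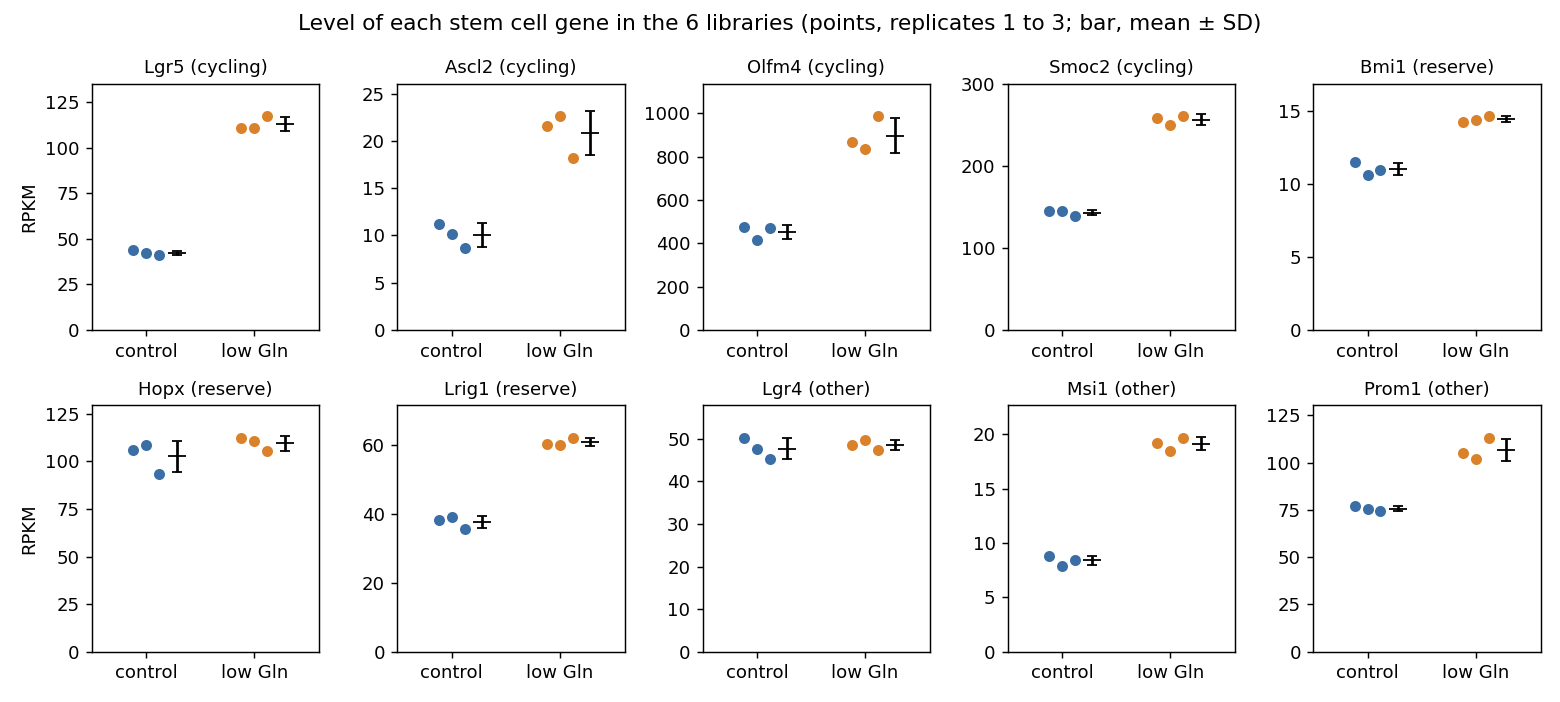
RPKM of each of the 10 genes (y axes, all from 0) in control and low glutamine libraries (x axes), with points for replicates 1 to 3 and the mean ± SD beside them. The groups separate for 8 genes, and the points of Hopx and of Lgr4 overlap.

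The reserve genes differed among themselves. Lrig1 encodes a transmembrane inhibitor of ERBB receptors that restrains growth in the crypt (chromosome 6, 94604529 to 94700298). It rose from 38.4, 39.2 and 35.6 RPKM to 60.3, 60.1 and 62.3 RPKM (log2 fold change 0.68 ± 0.06, limma adjusted p = 3.4e-07). The gap between the groups was wider than the range within either of them.

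Bmi1 encodes a ring finger subunit of Polycomb repressive complex 1, which silences genes such as the cell cycle inhibitor locus Cdkn2a (chromosome 2, 18677018 to 18686629). Control replicates 1 to 3 measured 11.5, 10.6 and 11.0 RPKM, and low glutamine replicates 14.3, 14.4 and 14.7 RPKM. The difference was the smallest of the 8 that passed, at 0.36 ± 0.05 on the log2 scale (limma adjusted p = 5.1e-05), yet the groups did not overlap. A larger rise was found in 2004 tested genes, 18.1%.

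Hopx encodes an atypical homeodomain protein that does not bind DNA and marks slowly cycling cells in several epithelia (chromosome 5, 77086986 to 77115123). Its control libraries read 106, 109 and 93.6 RPKM, and its low glutamine libraries 113, 111 and 105 RPKM. The groups overlapped, since low glutamine replicate 3 lay below control replicates 1 and 2. The log2 fold change of 0.09 ± 0.07 did not pass (limma adjusted p = 0.23). It depended on the scaling of the libraries: Hopx passed as higher after rescaling to a common RPKM sum (0.22, adjusted p = 0.012) and after quantile normalization (0.32, adjusted p = 0.0040), and stood at 0.00 with median-of-ratios scaling.

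Lgr4, the broadly expressed relative of Lgr5 that also binds R-spondins, did not follow it (chromosome 2, 109917647 to 110014257). Controls read 50.3, 47.6 and 45.3 RPKM and low glutamine libraries 48.5, 49.7 and 47.5 RPKM, with all low glutamine values inside the control range. The log2 fold change was 0.03 ± 0.06 (limma adjusted p = 0.70), and it was -0.07 with median-of-ratios scaling, 0.15 with a common RPKM sum and 0.17 with quantile normalization, the last pair past the test. Within a library the level of Lgr5 was 0.867, 0.890 and 0.914 times that of Lgr4 in control and 2.29, 2.23 and 2.48 times in low glutamine. The more abundant of these receptor transcripts was therefore Lgr4 in each control and Lgr5 in each low glutamine library, and this ratio does not depend on library scaling.

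Msi1, Musashi 1, is an RNA-binding protein of stem and progenitor cells that represses translation of targets such as Numb (chromosome 5, 115359059 to 115455698). It rose from 8.78, 7.90 and 8.47 RPKM to 19.2, 18.5 and 19.7 RPKM. The ranges lay far apart, and the log2 fold change of 1.10 ± 0.05 (limma adjusted p = 3.2e-09) was second to that of Lgr5. Prom1, which encodes the membrane protein CD133 found on stem cells and on more differentiated crypt cells, measured 77.2, 75.7 and 74.4 RPKM in the controls and 105, 102 and 113 RPKM in the low glutamine libraries (chromosome 5, 43993621 to 44102047). Its log2 fold change was 0.49 ± 0.06 (limma adjusted p = 1.1e-05), and the groups did not overlap.

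The order of the genes by RPKM, which is scaled to transcript length, changed with the group. In control it ran from Olfm4 through Smoc2, Hopx, Prom1, Lgr4, Lgr5, Lrig1, Bmi1 and Ascl2 to Msi1. In low glutamine Lgr5 moved from place 6 to place 3, behind Olfm4 and Smoc2, and Bmi1 from place 8 to place 10. Neighbours whose libraries overlapped were Bmi1 with Ascl2 and Ascl2 with Msi1 in control. In low glutamine they were Lgr5 with Hopx, Hopx with Prom1, and Ascl2 with Msi1.

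Cycling and reserve genes were set against each other within each library as differences of log2(RPKM + 1), which cancel most of the library scaling. The cycling genes rose by more than the reserve genes in all 12 pairs by group mean, and in 11 of the 12 every low glutamine library lay above every control. The widest shift was that of Lgr5 against Hopx, at -1.26, -1.34 and -1.16 in control and -0.02, 0.00 and 0.16 in low glutamine. Lgr5 thus went from well below Hopx to level with it. The narrowest was that of Smoc2 against Lrig1, at 1.90 ± 0.04 (SD, n = 3) in control and 2.06 ± 0.02 in low glutamine, a shift of 0.16. Ascl2 against Lrig1 was the pair with overlap, at -1.69, -1.85 and -1.92 in control and -1.44, -1.37 and -1.72 in low glutamine. Against Lrig1 the shifts of Ascl2, Olfm4 and Smoc2 were 0.16 to 0.31, so that Lrig1 lay nearer to these cycling genes than to Hopx.

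The exact two-sided permutation p was 0.10 for the 11 separated pairs, the smallest that 3 against 3 libraries allow, and 0.20 for Ascl2 against Lrig1. After Benjamini-Hochberg adjustment over the 12 pairs none was below 0.109, so none passed 0.05 in this design. In summed RPKM the 4 cycling genes were 4.32, 3.87 and 4.70 times the 3 reserve genes in control and 6.73, 6.57 and 7.60 times in low glutamine.

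**Figure D3:**
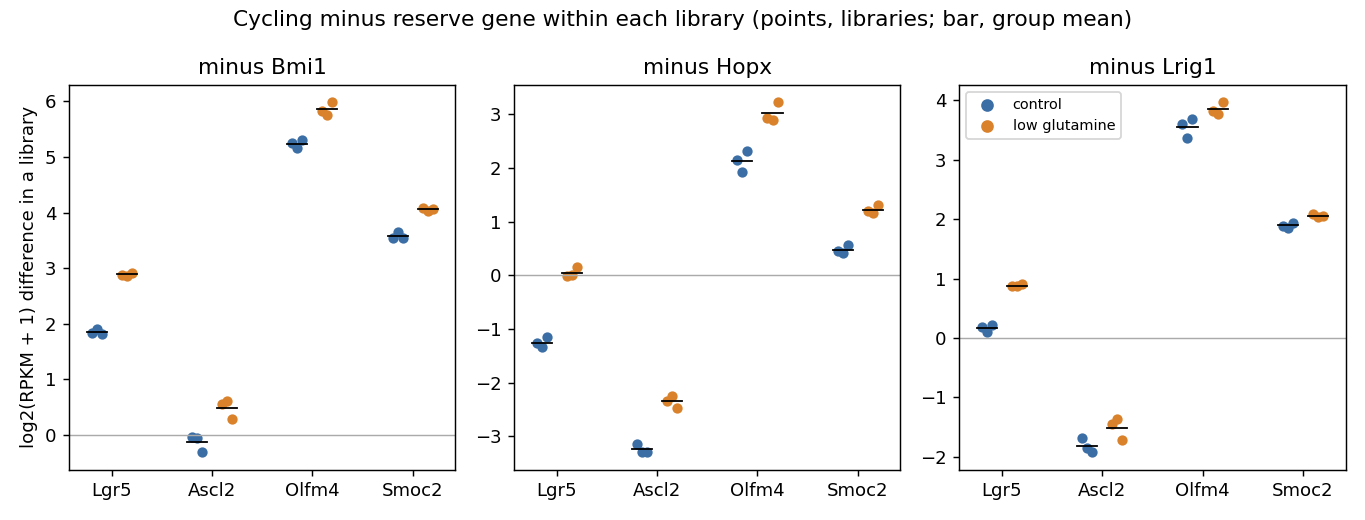
Difference of log2(RPKM + 1) between a cycling gene (x axis) and a reserve gene (panels: Bmi1, Hopx, Lrig1) within each library (y axis), with points for libraries and bars for group means. Low glutamine points lie above control points in 11 of 12 pairs, and Ascl2 minus Lrig1 overlaps.

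Set against Epcam, an epithelial adhesion gene that itself rose from 385 ± 14.3 to 490 ± 10.6 RPKM (a denominator chosen after its values were seen), Lgr5 was 2.10 times higher in low glutamine, Msi1 1.79 times and Lrig1 1.27 times. Bmi1 per Epcam measured 0.0287 ± 0.00163 in control and 0.0295 ± 0.000489 in low glutamine, ranges that overlapped. Hopx per Epcam was 0.273, 0.274 and 0.253 in control and 0.230, 0.231 and 0.210 in low glutamine, so that on this scale every low glutamine value lay below every control. Lgr4 per Epcam likewise went from 0.120 to 0.129 in control to 0.0949 to 0.104 in low glutamine. These directions depend on the denominator, since of the 7 epithelial markers 4 were called higher and 3 lower (Krt19, Vil1 and Cldn7). Vil1 fell from 190 to 133 RPKM, so Hopx and Lgr4 would not be lower against it.

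Other genes of the crypt base columnar cell signature moved with the cycling genes. Of 25 listed beyond the 10, 21 were tested, 19 rose and 1 fell, with a median log2 fold change of 0.91. Rassf5 (0.785 and 2.35 RPKM) and Gkn3 (0.232 and 3.60 RPKM), counted among those that rose, passed the filter only through low glutamine. The median is the value of Rassf5. Among all tested genes 36.1% were called higher and 30.3% lower. The Wnt-responsive receptor Tnfrsf19 (TROY) rose from 1.24 ± 0.0128 to 45.9 ± 1.93 RPKM, and the hyaluronan receptor Cd44 from 4.20 ± 0.285 to 27.7 ± 1.20 RPKM. Afap1l1, an actin-associated protein, rose from 10.1 ± 0.531 to 28.4 ± 1.21 RPKM and the crypt positioning receptor Ephb3 from 6.83 ± 0.689 to 21.0 ± 0.465 RPKM. The exceptions were the water channel Aqp4, which fell by 0.36 on the log2 scale, and the nuclear receptor Esrrg, at 6.90 and 6.95 RPKM. The 4 untested genes were Fstl1, Clca4a, Scn2b and Htr4, all with a mean under 1 RPKM, and of these Clca4a was lower in every low glutamine library (0.958 ± 0.267 and 0.155 ± 0.022 RPKM).

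Other genes linked to reserve or position 4 cells were mixed. Of 7 tested, 4 rose and 2 fell, beside 36.1% called higher and 30.3% lower of all tested genes, with a median of 0.73. Clu and Prox1, counted among those that rose, averaged under 1 RPKM in control and passed the filter only through low glutamine. Krt15 (0.184 and 0.751 RPKM) and Dclk1 (0.327 and 0.492 RPKM) lay under the filter. Clu, a marker of revival stem cells, rose from 0.440 ± 0.103 to 35.2 ± 1.24 RPKM, and the homeobox gene Prox1 from 0.604 ± 0.0951 to 5.77 ± 0.141 RPKM. Mex3a, an RNA-binding protein of slowly proliferating Lgr5-positive cells, rose from 5.28 ± 0.349 to 9.38 ± 0.171 RPKM and the cell cycle inhibitor Cdkn1c from 3.24 ± 0.487 to 6.14 ± 0.275 RPKM. Krt19 and Igf1r fell by 0.50 and 0.25. The telomerase gene Tert, proposed as a reserve marker, measured 1.28 ± 0.126 and 1.28 ± 0.171 RPKM (limma adjusted p = 0.99).

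In the R-spondin receptor module, which includes Lgr5 and Lgr4, 6 of 8 tested genes rose, beside 36.1% of all tested genes, and 1 fell. Rnf43 and Znrf3 were already counted as higher in the wider crypt base list. With a common RPKM sum or quantile normalization, 7 rose. The ligases that LGR receptors act on rose with Lgr5: Rnf43 from 28.3 ± 1.54 to 45.8 ± 0.281 RPKM and Znrf3 from 4.63 ± 0.0587 to 9.58 ± 0.556 RPKM. Because Lgr5 rose further, Rnf43 went from 0.666 ± 0.0215 to 0.405 ± 0.0153 times the level of Lgr5. The Wnt receptor Fzd5 fell from 22.5 ± 0.944 to 10.3 ± 0.103 RPKM, while Fzd7 rose from 5.36 ± 0.213 to 9.71 ± 0.441 RPKM. Of the ligands, Rspo1, Rspo2 and Rspo3 were at most 0.0267 RPKM in any library, and Rspo4 measured 0.0993 ± 0.0271 and 1.18 ± 0.132 RPKM. Lgr6, the third receptor of the family, read 0 in all controls and averaged 0.00596 RPKM in low glutamine.

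Of 16 Polycomb repressive complex 1 genes, all tested, 11 including Bmi1 rose, beside 36.1% of all tested genes, 0 fell and 5 did not pass, with a median of 0.29. The number higher was 10 with median-of-ratios scaling and 15 with a common RPKM sum. The chromobox gene Cbx6 had the largest rise, from 13.2 ± 0.263 to 25.3 ± 0.117 RPKM, followed by the polyhomeotic gene Phc1 (2.67 ± 0.206 to 4.64 ± 0.0852 RPKM). The catalytic partner Rnf2 rose by 0.47, and the chromobox gene Cbx2 by 0.48. Pcgf2, the closest relative of Bmi1, measured 10.3 and 11.1 RPKM (limma adjusted p = 0.14).

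Close relatives of the other genes did not all share their direction. Lrig3 fell from 9.45 ± 0.472 to 6.55 ± 0.505 RPKM and Lrig2 rose from 2.55 ± 0.165 to 3.42 ± 0.241 RPKM, and within a library Lrig1 went from 3.99 ± 0.0436 to 9.33 ± 0.630 times the level of Lrig3. Of the ERBB receptors that LRIG1 restrains, Egfr rose by 0.64 and Erbb3 by 0.27, and Erbb2 fell by 0.15 (limma adjusted p = 0.039). Msi2 rose from 14.5 ± 0.479 to 20.0 ± 0.326 RPKM, less than Msi1, so that Msi1 went from 0.579 ± 0.0137 to 0.955 ± 0.0213 times its level. Olfm1 rose from 0.741 ± 0.0864 to 3.81 ± 0.368 RPKM. Smoc1 (0.811 ± 0.0606 and 0.373 ± 0.0530 RPKM), Olfm2, Olfm3, Prom2, Ascl3 and Lgr6 lay under the filter, and the highest value of the last 5 was 0.244 RPKM, for Olfm2.

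The genes with the profile nearest to Lgr5 over the 6 libraries, by Euclidean distance of centred log2(RPKM + 1), were Lamb1, Afap1l1, Tppp, Tnfrsf11b and Rhobtb3, at 0.07 to 0.09. Their log2 fold changes of RPKM + 1 were 1.36 to 1.41. In mean RPKM they rose by between 2.82-fold (Afap1l1) and 10.8-fold (Lamb1), beside 2.67-fold for Lgr5, since the added 1 shrinks changes of low genes. Lamb1 (0.201 RPKM) and Tppp (0.618 RPKM) were under 1 RPKM in control and passed the filter only through low glutamine. Nearest to Hopx were Sipa1l3, Fam89b, Cenpu, Mfsd3 and Thap3, at 0.03 to 0.05. With 6 libraries in 2 groups, such a distance mostly ranks genes by their group difference.

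**Figure D4:**
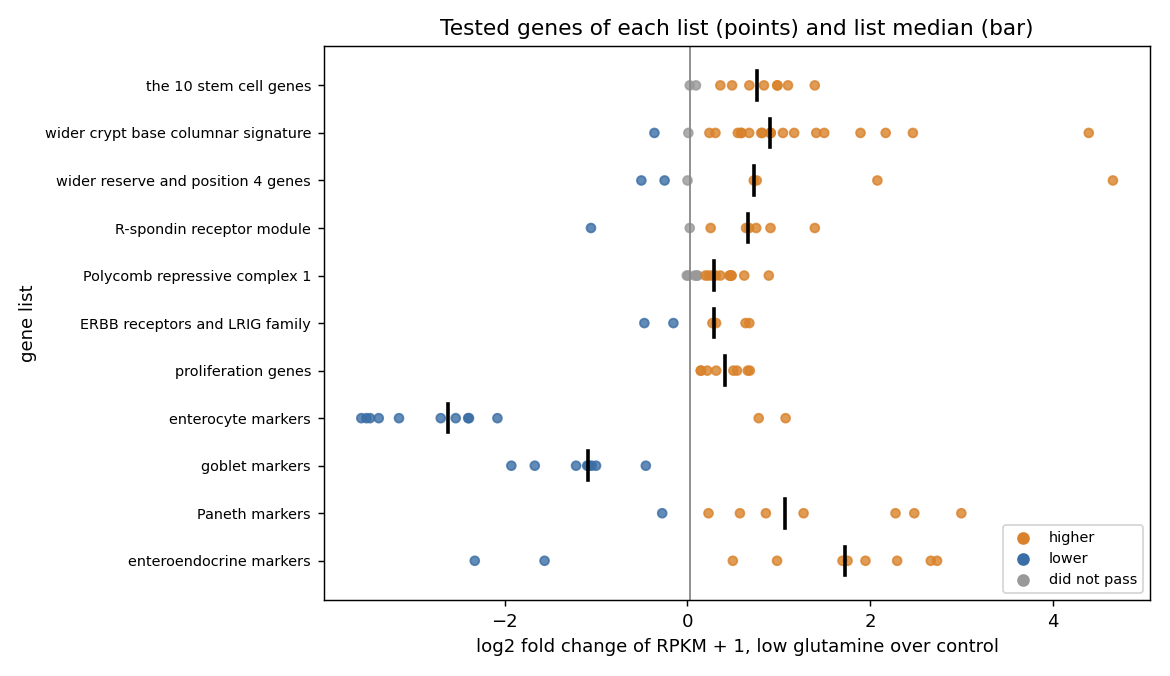
Log2 fold change of RPKM + 1 (x axis, low glutamine over control) for the tested genes of each list (y axis), coloured by call, with a bar at each list median and a line at the median of all tested genes. The 10 stem cell genes have a median of 0.76 and the wider crypt base signature 0.91, beside -2.62 for enterocyte and -1.09 for goblet markers.

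Markers of other epithelial cells differed between the same libraries, where 36.1% of all tested genes were called higher and 30.3% lower. Enterocyte markers summed to 2604 to 2802 RPKM over 12 genes in control and 733 to 815 RPKM in low glutamine, with 10 lower and 2 higher. The 2 that rose were Anpep (220 to 466 RPKM) and Alpi (11.4 to 20.3 RPKM). Goblet markers went from 1872 to 2210 RPKM to 877 to 967 RPKM, with all 8 lower. Paneth markers summed to 1835 to 1891 RPKM and 3042 to 3562 RPKM (7 of 8 higher, Nupr1 lower), and enteroendocrine markers to 403 to 418 RPKM and 1367 to 1561 RPKM (8 of 10 higher). The enteroendocrine markers that fell were Gcg (84.8 to 16.1 RPKM) and Pyy (5.93 to 1.35 RPKM). Tuft markers summed to at most 5.87 RPKM in control and at least 7.66 RPKM in low glutamine over 6 genes, with 3 of 4 tested higher and Il17rb lower. Some counted markers passed the filter through 1 group only. The tuft markers Trpm5 and Avil and the Paneth marker Pla2g2a averaged under 1 RPKM in control. The enterocyte marker Lct and the goblet marker Clca1 averaged under 1 RPKM in low glutamine. All 8 proliferation genes rose, beside 36.1% of all tested genes, with a median of 0.41; 6 did so with median-of-ratios scaling and 6 to 8 over the left-out libraries. Among them were Mcm2 from 21.5 ± 0.509 to 35.2 ± 1.79 RPKM and Mki67 from 29.7 ± 1.29 to 42.5 ± 3.11 RPKM. The part of these shifts in the stem cell gene differences was not tested.

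Libraries with replicate number 3 stood apart from the others in the same way in both groups, so differences were also taken between same-numbered libraries. For Lgr5 they were 1.33, 1.37 and 1.49 on the log2 scale in pairs 1 to 3, for Lrig1 0.64, 0.60 and 0.79, and for Bmi1 0.29, 0.40 and 0.39. Hopx gave 0.08, 0.03 and 0.17, and Lgr4 -0.05, 0.06 and 0.07. All 8 genes that passed the test were higher in low glutamine in each of the 3 pairs. This follows from their groups not overlapping and is no further check.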

How the data were processed

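RNA-seq values were deposited by the authors as RPKM, 1 column per library and 24956 rows named by symbol. Per the submitters' processing notes, CASAVA 1.8, HISAT2 2.0.4, Partek and mm10 were used, with no role or order. Per the labels, libraries came from total RNA with TruSeq kits. Which annotation and counting rule were used, and whether counting kept strand, is not given in the sources used here, so reads of overlapping genes, such as Slc25a26 at the end of Lrig1 and the antisense Hopxos within Hopx, cannot be told apart.

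RPKM values are not counts, so limma 3.58.1 (R 4.3.3, empirical Bayes with variance trend) was run on log2(RPKM + 1) for the 11082 genes averaging 1 RPKM or more, two-sided, with Benjamini-Hochberg adjustment over all of them and a threshold of 0.05. Fold changes on this scale understate those of low genes. The fit was tested on simulated data. Depth was estimated from single-exon genes under 0.3 RPKM, where 18 to 33 values per library gave the worth of 1 read. At these depths 40.9% to 47.6% of the low values were whole reads within 0.02, with GENCODE M21 lengths. A transcript of 1 kilobase at 1 RPKM rested on 24.4 to 35.4 reads.

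The 10 genes and the gene lists were chosen with earlier results of these data known. Named were the 10 genes, their family relatives apart from a gene that is not reported here, the 4 genes with the smallest p of lists described for their genes, the 5 nearest profiles of Lgr5 and Hopx, and others as exceptions or examples, chosen after their values were seen. Same-numbered libraries deviated together across genes (r = 0.15, 0.25 and 0.57 for replicates 1, 2 and 3), which met the rule of every pair above 0.1. However, control replicate 2 and low glutamine replicate 1 gave 0.36, and control replicate 1 and low glutamine replicate 2 gave 0.20. Of the control libraries, only replicate 3 correlated best with its own number. The replicate number as a block changed no call of the 10 genes. Other scalings, pseudocounts, filters and left-out libraries were tried. Python 3.11.15, pandas 2.3.3, numpy 2.4.6, scipy 1.17.1 and matplotlib 3.10.9 served for tables, exact tests and plots.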

Additional observations from a re-analysis of the deposited data

How the results depend on the processing

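Over 15 alternatives, the 8 called genes kept their direction and call. Lgr5 ran from 1.30 to 1.59, Bmi1 from 0.27 to 0.50, Hopx from 0.00 to 0.32 and Lgr4 from -0.07 to 0.18 on the log2 scale. Lgr4 turned to -0.0669 with median-of-ratios scaling and ran from -0.0108, without control replicate 3, to 0.0638 over the left-out libraries. Hopx and Lgr4 passed as higher with a common RPKM sum, with quantile normalization and with a common sum without the ribosomal RNA precursor Rn45s, the last added after the data were seen, where they stood at 0.25 and 0.18. Rn45s itself varied from 1898 to 12252 RPKM. Rescaling moved the median of all tested genes from 0.03 to 0.14, and to 0.17 without Rn45s. Of the calls, 54.4% were higher, but 69.1% with a common sum, 71.7% without Rn45s (6041 genes, beside 4001) and 42.1% with median-of-ratios scaling.

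The replicate block gave 7736 calls beside 7361 and the same 8 genes. Its p-values (Lgr5, adjusted p = 1.6e-97) come from a fit that pooled the spread fully over genes. Of the 12 cycling and reserve pairs, between 11 and 12 were separated when a library was left out. The 11 separated with all libraries stay separated in any subset, so this count could not fall.

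Counts of list members moved by more than 1.5 times as follows. Without a filter on low values, the wider crypt base list had 2 lower, the ERBB and LRIG list 1 lower, family relatives 2 lower, immune markers 2 lower and endothelial markers 1 higher. The ERBB and LRIG list had 1 lower, and not 2, with either common sum and with quantile normalization, and 1 to 2 lower over the left-out libraries. The wider reserve list had 1 lower, and not 2, with either common sum, and 1 to 2 over the left-out libraries, with 1 without control replicate 1. Paneth markers had 0 lower with quantile normalization. Among moves of up to 1.5 times, over all settings, the higher count was 10 to 15 for Polycomb genes, 6 to 8 for proliferation genes and 6 to 7 for the R-spondin module, and 2 to 3 epithelial markers were lower. The wider reserve list had 3 lower with quantile normalization and 6 higher without a filter.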
